A study of Drosophila melanogaster with 3 samples.

Results

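Phol summits that lay deep inside introns, away from every annotated transcription start, made up 1950 of the 10264 reproducible peaks in Drosophila melanogaster embryos. A summit was taken as distal intronic when it was more than 2000 bp from the nearest annotated start of any gene, lay in an intron of a protein-coding gene and touched no annotated exon. These peaks were 19.0% of the list (95% Wilson interval 18.3% to 19.8%). The rest comprised 5080 promoter summits (49.5%, within 500 bp of a start), 2024 summits 501 to 2000 bp from a start, 1080 distal intergenic summits (10.5%), 78 exonic summits and 52 in introns of other genes. In the strongest 10264 peaks of each replicate, 1841, 1918 and 2107 summits met the same rule, or 19.1% ± 1.33 (SD, n = 3).

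All samples belonged to 1 group: whole embryos of both sexes, aged 0 to 16 hours, from a transgenic line that stably makes Phol carrying a C-terminal GFP tag. Chromatin immunoprecipitation with an anti-GFP antibody was sequenced in 3 biological replicates. No other genotype, treatment or untagged line was compared, and the promoter driving the fusion is not given in the labels. Whole embryos mix all cell types and many stages, so a peak cannot be assigned to a cell type, and peaks that would arise without Phol cannot be told apart from the others because the control is not analysed here. Whether the replicates came from separate collections is not stated, so each SD measures the spread between these samples.

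Phol (pleiohomeotic-like) and its paralogue Pho are zinc-finger proteins related to mammalian YY1. Both bind DNA with a GCCAT core, in its extended form GCCATNTT, and bring the Sfmbt-containing PhoRC complex to Polycomb response elements, DNA segments through which Polycomb group proteins keep developmental genes silent. Such elements and many embryonic enhancers lie in introns, and many fly enhancers are in first introns. The comparison of intronic summits with intergenic and promoter summits asked how peaks of the same distance class, or of the gene start, differed in strength, repeatability and sequence.

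The sequence at the strongest summits shows the range among these peaks, so the 50 bp on each side of the summit (dm6, RefSeq sequence) are printed here for 6 of the strongest peaks that held the extended site. Capitals mark GCCATNTT, and each sequence runs 5′ to 3′ on the strand named, which is the strand that carries the site.
MSAmiP rank 17, chr3R:16869491-16869591 (minus strand): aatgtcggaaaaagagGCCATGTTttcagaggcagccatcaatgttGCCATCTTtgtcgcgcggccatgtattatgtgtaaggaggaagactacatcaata
abd-A rank 73, chr3R:16811864-16811964 (minus strand): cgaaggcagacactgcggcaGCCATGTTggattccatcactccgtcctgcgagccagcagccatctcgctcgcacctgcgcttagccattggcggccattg
Raf rank 294, chrX:2297679-2297779 (minus strand): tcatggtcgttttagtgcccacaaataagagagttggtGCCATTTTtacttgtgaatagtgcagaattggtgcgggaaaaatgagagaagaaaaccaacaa
MSAmiP rank 491, chr3R:16882609-16882709 (minus strand): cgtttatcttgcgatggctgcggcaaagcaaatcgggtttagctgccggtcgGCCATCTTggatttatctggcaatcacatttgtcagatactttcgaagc
Hr4 rank 630, chrX:1951864-1951964 (minus strand): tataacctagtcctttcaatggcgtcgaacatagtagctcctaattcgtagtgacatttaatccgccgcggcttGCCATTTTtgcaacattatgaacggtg
Klp98A rank 1051, chr3R:27555114-27555214 (minus strand): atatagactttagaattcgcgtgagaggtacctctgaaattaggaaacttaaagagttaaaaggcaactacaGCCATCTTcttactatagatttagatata
The next 2 windows belong to 2 of the strongest peaks without the extended site and are shown on the plus strand, for contrast.
Gug rank 155, chr3L:8458290-8458390 (plus strand): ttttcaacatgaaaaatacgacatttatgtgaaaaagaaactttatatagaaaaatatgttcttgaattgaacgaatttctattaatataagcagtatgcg
Tlk rank 157, chrX:3742176-3742276 (plus strand): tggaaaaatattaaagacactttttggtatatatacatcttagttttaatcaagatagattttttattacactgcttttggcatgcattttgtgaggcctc
The strongest window carried 2 copies of the extended site, 31 and 1 bp before the summit as printed, and the abd-A window 1 copy 27 bp before it. The windows without the site had 23.8% GC at Gug and 28.7% at Tlk, against 44.6% in the strongest window and 62.4% at abd-A.

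The 20 strongest distal intronic peaks ranked from 17 to 386 in the whole list. The first 3 all fell in the bithorax complex, the Hox gene cluster that patterns the posterior thorax and abdomen. The strongest, rank 17 of the whole list, was in intron 4 of MSAmiP, a gene between abd-A and Abd-B, 13.2 kb from the nearest start, and ranked 12, 20 and 17 in replicates 1, 2 and 3. The peak in the first intron of Abd-B (3R, summit at 16948767), the Hox gene of the most posterior segments, had rank 53 and replicate ranks of 49, 55 and 63. The abd-A peak (3R, summit at 16811914), in intron 4, had rank 73 and replicate ranks of 57, 88 and 84. These replicate ranks, each out of 30000 peaks, placed all 3 sites among the strongest 0.293% of every replicate.

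Chromatin regulators were also among the 20 strongest. A peak in intron 2 of Gug, which encodes the Atrophin corepressor, ranked 155 in the list and 118, 176 and 180 in the replicates. The trx peak, in the first intron of the gene for the Trithorax histone methyltransferase, ranked 189 and, by replicate, 152, 194 and 227. Kdm2, a histone demethylase gene, held a peak of rank 199 (188, 232 and 158 in the replicates), and simj, which encodes a subunit of the NuRD remodelling complex, one of rank 231 (291, 219 and 207). The peak of tara, a gene that interacts with the trithorax group, ranked 285 (290, 328 and 262). The order of these genes was not the same in every replicate, and the replicate ranks of neighbouring genes overlapped.

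Signalling genes among the 20 strongest peaks included aos, which encodes a secreted inhibitor of the EGF receptor (rank 291, with 278, 290 and 308 in the replicates), and Raf, the kinase of the MAP kinase cascade (rank 294, with 276, 292 and 317). The peaks of ImpL2, a secreted insulin-binding protein, and Hr4, a nuclear receptor, had ranks 332 and 347. Tlk, the tousled-like kinase gene, held a peak of rank 157, and sbb, a transcriptional corepressor gene also called scribbler, one of rank 178. The remaining 6 of these peaks lay in CG46321, CG12769, comm3, CG32486, Pli and crp, between rank 96 at CG46321 and rank 386 at crp. All 20 were in different genes, 10 were in first introns, 4 held the extended site, and all were within the strongest 1.48% of every replicate.

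At the other end of the definition, the peaks nearest the 2000 bp limit did not share 1 strength. Just inside were summits in snu at 2001 bp, ps at 2002 bp and hiw at 2003 bp, with ranks 9039, 8477 and 1631. The nearest ones outside lay in Ubx and CG12576 at 2000 bp and in Flo2 at 1994 bp, with ranks 3884, 6034 and 10255. Seen from the nearest start, the median distal intronic summit was 5596 bp away, and the farthest was 56101 bp away.

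Distal intronic peaks were weaker than promoter peaks and stronger than distal intergenic peaks. Their median rank was 5682, against 6125 for intergenic and 4546 for promoter summits (lower ranks are stronger). Of the distal intronic peaks, 369 (18.9%) were in the strongest 25% of the list, against 146 of 1080 intergenic peaks (13.5%), an odds ratio of 1.49 (95% interval 1.21 to 1.84, two-sided Fisher's exact test, p = 1.5e-04). Against promoter peaks, of which 1541 (30.3%) were that strong, the odds ratio was 0.536 (0.472 to 0.609, same exact test, p = 6.6e-23). Ranked within the replicates, the share in the strongest 25% was 18.3% ± 0.749 for intronic, 13.7% ± 1.04 for intergenic and 30.7% ± 1.14 for promoter peaks (SD, n = 3 each). These groups of replicate values did not overlap. The Fisher tests treat every peak as independent and cover counting error only. All classes were ranked in the same 3 replicate lists, so their replicate values are paired, and no test was run on them.

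**Figure D1:**
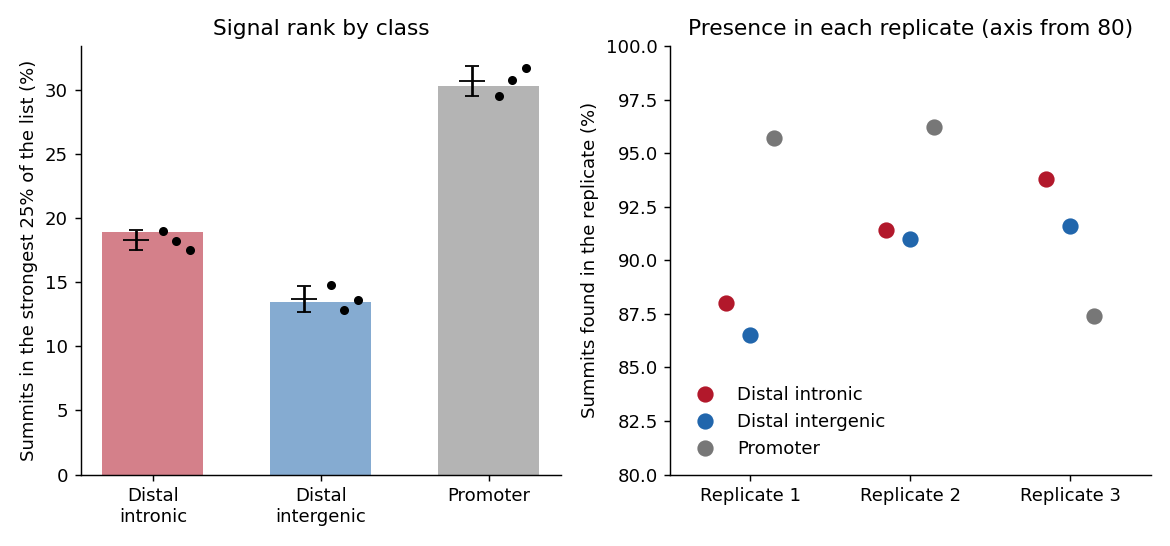
Left: share of summits in the strongest 25% of the reproducible list (bars), with the 3 replicates (points) and their mean ± SD (dash with error bar), for distal intronic, distal intergenic and promoter peaks. Right: percent of the reproducible summits of each class that lay within 250 bp of one of the strongest 10264 peaks of each replicate, on an axis that starts at 80. Distal intronic peaks lie between the other classes on the left, and on the right they are at 93.8% in replicate 3, where promoter peaks are at 87.4%.

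Replicate 3 ranked distal peaks, intronic and intergenic, higher than the other replicates did. Over the 1909 distal intronic summits with a peak within 250 bp in all full replicate lists, the median rank was 5976 in replicate 1, 5892 in replicate 2 and 5178 in replicate 3. Intergenic peaks had medians of 6307, 6264 and 5925. Promoter peaks went the other way, with medians of 3856, 3822 and 4362. A distal intronic summit had a partner among the strongest 10264 peaks in 88.0% of cases in replicate 1, 91.4% in replicate 2 and 93.8% in replicate 3, against 95.7%, 96.2% and 87.4% for promoter summits. Ranks of the intronic peaks were related between replicates, with Spearman's rank correlation of 0.896 for replicates 1 and 2, 0.870 for 1 and 3 and 0.903 for 2 and 3, given as a description across peaks. In the full lists of 30000, only 30, 3 and 12 of the 1950 summits had no partner in replicates 1, 2 and 3. Read depth is unknown here, and whether it moved with these rank differences was not tested.

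In all 3 replicates at once, 1543 distal intronic peaks (79.1%) had a partner among the strongest, where the whole list gave 80.1%. The share was 75.6% for intergenic peaks (odds ratio of intronic over intergenic 1.23, 1.03 to 1.46, Fisher's exact p = 0.0252) and 81.7% for promoter peaks (odds ratio 0.852, 0.748 to 0.970, p = 0.0175). Neither difference held under every setting. By the same exact test against promoter peaks, the odds ratio was 1.13 (p = 0.108) without replicate 1, 0.985 (p = 0.829) without replicate 2 and 0.384 (p = 2.6e-31) without replicate 3, and 1.24 (p = 6.4e-04) when partners had to lie within 100 bp. Against intergenic peaks it was 1.20 (exact p = 0.0860) without replicate 1 and 1.12 (p = 0.253) without replicate 3. In the strongest 5132 peaks of the list the odds ratio was 1.01 (0.185 to 5.56) against intergenic and 3.63 (1.30 to 10.1) against promoter peaks. Presence among the strongest peaks of a replicate is tied to rank, in which the classes also differed. The shares are therefore not a measure apart from strength, and classes were not compared at equal rank.

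First introns carried more of these peaks than their length would give. Of the 1950 summits, 759 (38.9%, 36.8% to 41.1%) lay in a first intron. Introns were numbered, at each base, in the longest transcript of the host gene that has an intron there. First introns held 10.1 of the 40.4 Mb of intron that met the rule, so that their share of summits was 1.56 times their share of bases. The replicates gave 38.2% ± 0.135 (SD, n = 3). Second introns held 639 summits, 32.8% of them against 27.5% of the bases. Introns 3 and 4 held 228 and 134, and introns 5 or later held 190, or 9.74% of the summits on 26.1% of the bases. In summits per megabase (Mb) of eligible intron, the values were 75.2 in first introns, 57.5 in second, 43.0 in intron 3, 40.2 in intron 4 and 18.0 in later ones. The ratio was 1.55 when an intron counted as first if any transcript placed it first, and 1.53 when every transcript had to.

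The ratio was smaller within host genes. There, in a comparison chosen after the values were seen, first introns held 27.9% of the eligible bases and the ratio was 1.39, with 142 summits per Mb against 57.6 in introns 5 or later. Strong and weak peaks did not differ detectably in this respect: 38.4% of the 975 stronger and 39.5% of the 975 weaker summits were in first introns (odds ratio 0.954, 0.795 to 1.14, Fisher's exact p = 0.642).

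Density also fell with distance from the nearest start. There were 71.2 distal intronic summits per Mb between 2 and 3 kb, 56.6 between 5 and 7.5 kb, 48.0 between 10 and 15 kb and 14.9 beyond 20 kb. The replicates gave 70.6 ± 7.04 per Mb in the nearest of these bins and 15.7 ± 1.13 in the farthest (SD, n = 3). At the same distance, first introns were denser than later ones in each of the 8 bins: 88.3 against 60.6 per Mb between 2 and 3 kb, and 30.7 against 13.4 per Mb beyond 20 kb. No test was run on these densities, because summits of 1 gene are not independent. The bin beyond 20 kb had 8.38 Mb of eligible intron, and the largest eligible genes without a summit, named below, offered up to 1929 kb each. Their part in the low densities of that bin was not tested, and distance was not examined within host genes alone.

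**Figure D2:**
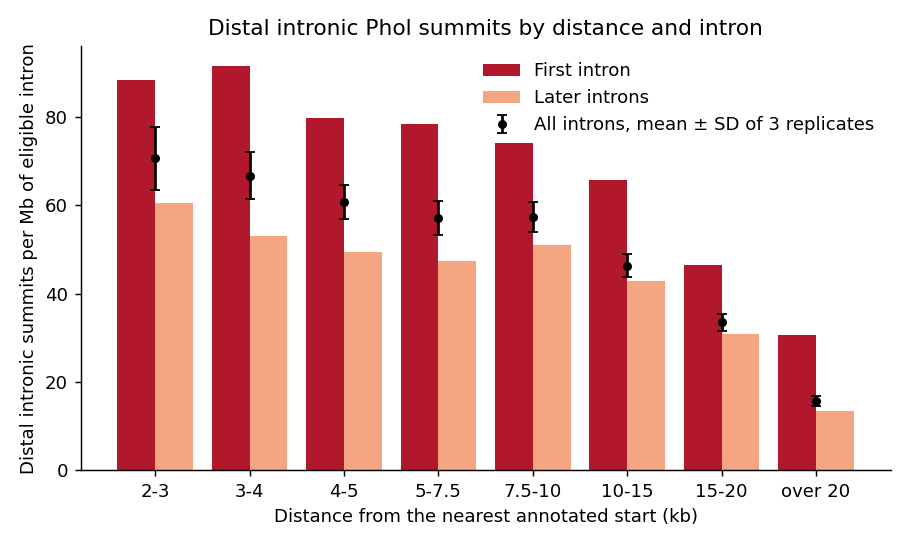
Distal intronic summits per Mb of eligible intron by distance from the nearest annotated start, in first introns and in later introns (bars, reproducible list), with the mean ± SD of the 3 replicates over all introns (points). First introns stand above later introns in every bin, and both fall to 30.7 and 13.4 per Mb beyond 20 kb.

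The 1950 summits fell in 788 host genes, out of 4122 protein-coding genes with any intron base that met the rule (19.1%). A host held 2.47 summits on average, and the replicates gave 2.48 ± 0.0878 (SD, n = 3). Of the hosts, 390 held 1 summit, 156 held 2, 136 held 3 or 4, and 106 held 5 or more. Those last 106 genes contained 784 summits, 40.2% of the total. The list of hosts was largely repeated: 676 of the 788 (85.8%) also hosted a summit in the strongest peaks of every replicate.

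The 12 genes with the most summits held 11 to 29 each. kirre, an immunoglobulin-family adhesion gene of muscle founder cells, held 29 (27, 29 and 32 in replicates 1, 2 and 3), of which 20 lay in its 118 kb intron 5. The homeodomain gene hth, whose product is a cofactor of Hox proteins, held 16 (16, 15 and 15 in the replicates), and the teneurin gene Ten-a held 15 (15, 15 and 14). The Wnt receptor genes fz2 and fz, of the Frizzled family, were among the 12 highest, fz2 with 14 (14, 14 and 15) and fz with 13 (14, 12 and 15). sbb held 14, all in its 65.6 kb second intron, and CG43658 held 13. Eip75B (an ecdysone-induced nuclear receptor), MSAmiP, mam (mastermind, a Notch coactivator) and mew (an integrin alpha subunit) each held 12, and Sema1a, a semaphorin guidance gene, held 11. These counts moved by at most 5 between replicates, the widest span being that of kirre.

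The rank of the strongest summit differed widely among the genes with many summits. The strongest kirre peak ranked 554 in the list (485, 621 and 570 in the replicates), and the next ranked 2011 and 2317. In fz2 the strongest had rank 1801, with 1197, 2534 and 1854 in the replicates, and in Ten-a rank 1839, with 2374, 2089 and 1527. MSAmiP held stronger ones, with ranks of 17 and 491 for its 2 strongest summits, and so did sbb, with 178 and 403.

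Hosts were long genes. Their median length was 26.9 kb, against 7.07 kb for eligible genes without a summit and 2.17 kb for all 13945 protein-coding genes. Across the 4122 eligible genes, Spearman's rank correlation between eligible intron bases and summits was 0.521, a description over genes that share the peak list. Density was highest at intermediate lengths: it was 47.2 summits per Mb in genes under 10 kb, 70.2 in genes of 10 to 20 kb, 61.4 in genes of 20 to 50 kb, 51.3 in genes of 50 to 100 kb and 23.3 in the 81 genes of at least 100 kb, of which 49 were hosts. The largest gene by eligible bases, the myosin gene Myo81F, offered 1929 kb and held no summit. Nor did Pzl (699 kb), lovit (426 kb), CG17684 (387 kb) or DIP-lambda (369 kb), and in the replicates' strongest peaks only CG17684 had 1, in replicate 2. These genes all belong to the group of at least 100 kb, which had 11.5 Mb of eligible intron. Their lowest coordinates are 567076 (Myo81F) and 2554162 (Pzl) on 3R, 25236940 (lovit) on 3L, and 1866080 (CG17684) and 326768 (DIP-lambda) on 2R. Whether their position, rather than gene length, goes with the low density of that group was not tested. Among hosts of at least 3 summits, trx was densest, with 7 in 7.98 kb of eligible intron (7, 7 and 7 in the replicates), followed by cyr, bowl, ckn and Pits with 3 to 5 summits each.

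**Figure D3:**
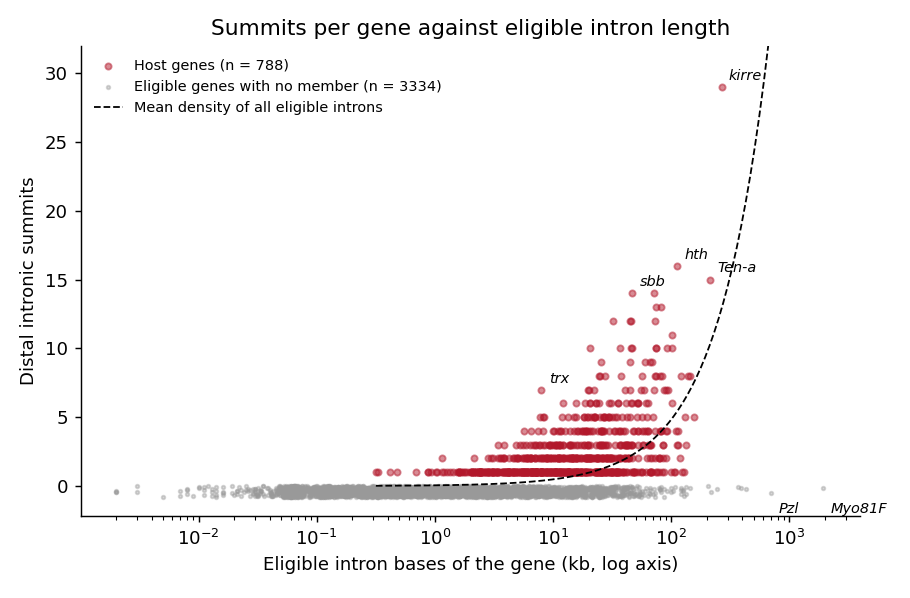
Distal intronic summits of each gene against its eligible intron bases (log axis), for 788 host genes and 3334 eligible genes without a summit (drawn just below 0 with vertical jitter). The dashed line is the mean density of 48.3 summits per Mb. kirre holds 29 summits, trx stands far above the line for its length, and Myo81F and Pzl are the longest genes with none.

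Neighbouring summits of 1 host were a median of 3712 bp apart, and 375 of 1157 neighbouring pairs (32.4%) were within 2000 bp. The summits occupied 1014 introns, of which 605 held 1 and 216 held 3 or more. After kirre intron 5 and sbb intron 2, the fullest were intron 6 of Ten-a and intron 4 of CG43658 with 12 each, and the first intron of jing and the second of rdx with 10 each. Neighbouring summits can be given the same replicate rank, because the strongest replicate peak within 250 bp was taken. In trx, the summits ranked 1945 and 6856 were both given the ranks 1809, 2247 and 1939 in the replicates.

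The X chromosome held 477 distal intronic summits on 7.43 Mb of eligible intron, 64.2 per Mb, against 44.7 per Mb on the autosomes. The ratio was 1.44, and 1.44 ± 0.0136 in the replicates (SD, n = 3). Within host genes the density was 102 per Mb on the X and 102 on the autosomes, while more of the eligible genes were hosts on the X: 185 of 742 eligible X genes (24.9%), against 603 of 3380 autosomal ones (17.8%). The small chromosome 4 held 1 summit in 0.415 Mb. Annotated transposon insertions made up 8.06% of the eligible bases and held 7 summits (0.359%).

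Genes that hosted an intronic summit also had promoter peaks more often. A summit within 500 bp of a start was found at 470 of 788 hosts (59.6%) and at 1627 of 3334 other eligible genes (48.8%), where all eligible genes gave 50.9% (odds ratio 1.55, 1.32 to 1.82, two-sided Fisher's exact p = 4.3e-08). The replicates gave 58.6% ± 4.59 for hosts and 48.7% ± 3.22 for the others (SD, n = 3). This comparison over all genes was lost when the window was narrowed to 200 bp, with 35.8% of hosts and 36.5% of the others (odds ratio 0.968, exact p = 0.711). Among the longer genes taken by eligible length it was kept. In the 1031 genes with the most eligible bases, 59.3% of 531 hosts and 25.6% of 500 others had a promoter peak within 500 bp (odds ratio 4.24, 3.25 to 5.53, exact p = 3.6e-28), and with the 200 bp window 35.0% of hosts and 12.8% of others did (odds ratio 3.67, p = 4.2e-17). The replicates gave 56.6% ± 4.34 for these hosts and 27.1% ± 2.20 for the others (SD, n = 3). With 1625 to 8534 eligible bases the shares were 59.7% and 42.6% (odds ratio 2.00, 1.49 to 2.69, exact p = 3.8e-06), and with 244 to 1624 bases 66.7% of 21 hosts and 53.9% of others (odds ratio 1.71, exact p = 0.276). Hosts had a mean of 2.20 distinct starts and the others 1.67. Among genes with 1 start, in a split chosen after the values were seen, the shares were 50.1% of hosts and 43.5% of others within 500 bp (odds ratio 1.30, exact p = 0.0248), and 28.6% and 33.2% within 200 bp (odds ratio 0.807, p = 0.103).

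For 318 hosts there was no promoter peak at all within 500 bp, and kirre, hth, fz2, CG43658, fz and MSAmiP were among them. Where both kinds were present, the strongest intronic summit ranked above the strongest promoter summit in 227 of 470 hosts (48.3%). This share depends on how many summits of each kind a gene held, and all hosts held 2.47 intronic summits on average. It does not compare the strength of single summits.

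The share of hosts and the density of summits ordered the gene lists differently. Hosts were 69.2% of the Hox and segmentation list, 54.5% of nuclear receptor genes, 50.7% of signalling genes, 49.5% of other developmental transcription factors, 46.2% of RNA-binding regulators and 41.2% of axon guidance genes. The share was 28.6% in the Polycomb and trithorax group, 25.9% in the muscle list and 17.2% in the ion channel and synapse list, against 19.1% of all eligible genes. The genes named for each list are those with its strongest summits, not its highest counts. Among Hox, segmentation and homeotic regulators, 18 of 26 eligible genes were hosts, the strongest summits lying in Abd-B with 4 summits, abd-A with 2 and bowl, a zinc-finger gene of the odd-skipped family, with 3. Of nuclear receptor and ecdysone response genes 12 of 22 were hosts, among them Hr4 with 9 summits (9 in each replicate) and ImpL2 with 3. Signalling pathway genes gave 37 hosts of 73, with aos at 3 summits, Raf at 8 and mam at 12, and other developmental transcription factors gave 47 of 95, including ken, a zinc-finger repressor gene, with 1. The Polycomb and trithorax group had 10 hosts of 35, with trx at 7, tara at 8 and grh at 2 summits. Per Mb of eligible intron the densities were 138 for the Polycomb and trithorax group, 135 for signalling, 121 for the Hox and segmentation list, 92.9 for nuclear receptors and 84.1 for other transcription factors, against 48.3 over all eligible genes.

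The ion channel and RNA-binding lists had densities below that of all eligible genes, and the axon guidance list was close to it. Axon guidance and neural adhesion genes gave 49 hosts of 119, at 46.2 summits per Mb. Ion channel, receptor and synapse genes gave 15 of 87 at 15.9 ± 1.24 per Mb in the replicates (SD, n = 3), the strongest lying in dnc, a cAMP phosphodiesterase gene, rg and the calcium channel subunit gene Ca-beta, which held 3 summits each. RNA-binding regulators gave 18 of 39 at 35.3 per Mb, with shep at 4, Rbfox1 at 7 and cpo at 4. Muscle structure genes gave 7 of 27 at 64.8 per Mb. Of the 19 summits of this list, mew alone held 12, the integrin gene if 2 and Zasp52 1. None of the 78 matched cytosolic ribosomal protein genes had an intron base that met the rule. The median eligible length differed between lists, from 0.766 kb for the Polycomb and trithorax group to 24.9 kb for axon guidance genes, where all eligible genes had 1.62 kb. The lists share some genes, and no test was made of them.

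**Figure D4:**
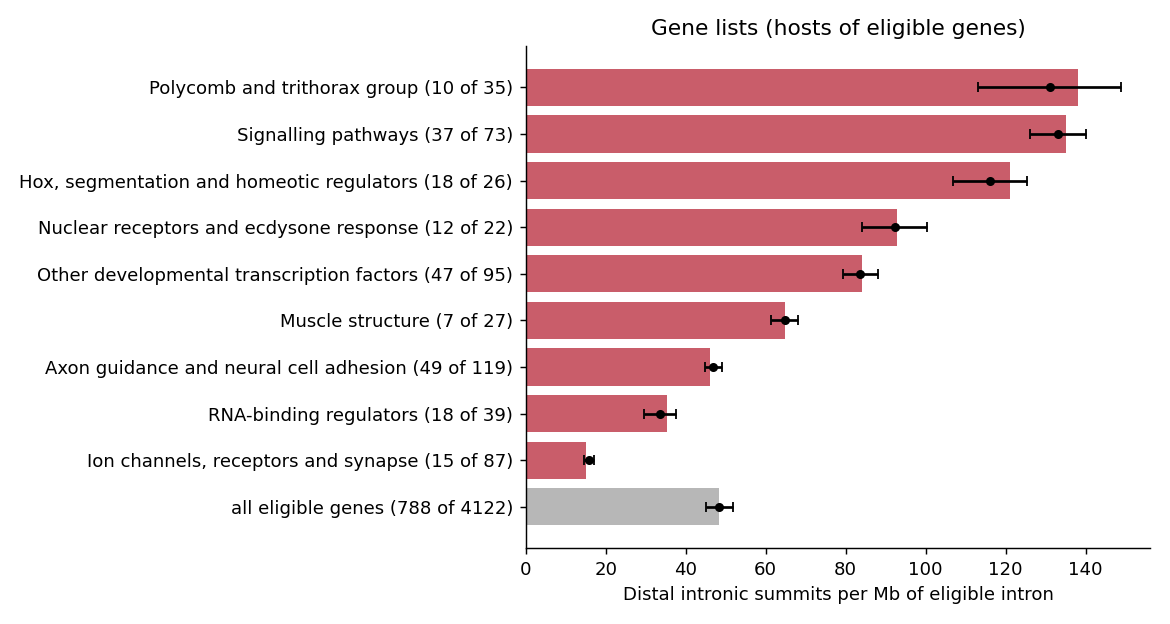
Distal intronic summits per Mb of eligible intron for 9 gene lists and for all eligible genes (bars, reproducible list), with the mean ± SD of the 3 replicates (points). The counts beside each name are hosts of eligible genes. The Polycomb and trithorax, signalling and Hox lists are above 100 per Mb, against 48.3 for all eligible genes.

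The extended Phol site was centred on these summits but present at few of them. Within 50 bp of the summit, 96 of 1950 windows (4.92%, 4.05% to 5.98%) held GCCATNTT on either strand, as in the MSAmiP and abd-A windows printed above, where the whole list gave 6.63%. In windows of the same width placed 500 bp to each side, 85 of 3900 (2.18%) did, an odds ratio of 2.32 (1.73 to 3.13, Fisher's exact test, adjusted p = 1.1e-07 over the 13 words tested). The replicates gave 5.13% ± 0.532 at summits and 2.08% ± 0.0823 in flanks (SD, n = 3). Within 25 bp the odds ratio was 4.05 and within 100 bp 1.72. In 50 bp bins, the central bin held 4.10 sites per 100 summits, against 1.18 and 1.79 in its neighbours.

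Distal intronic summits carried the extended site less often than promoter summits, at 4.92% against 7.30% (odds ratio 0.657, 0.522 to 0.828, adjusted p = 7.0e-04 by Fisher's exact test). Within 25 bp of the summit this difference was not detectable (odds ratio 0.809, adjusted exact p = 0.332). At 7.04%, intergenic summits did not differ from them past the threshold (odds ratio 0.684, 0.501 to 0.933, adjusted exact p = 0.114). The short core GCCAT, whose matches include the extended site, was in 14.9% of intronic windows, against 19.9% of their flanks (odds ratio 0.701, adjusted exact p = 4.6e-06), 19.4% of intergenic summits (0.728, adjusted p = 0.0233) and 22.1% of promoter summits (0.617, adjusted p = 2.1e-11). In 50 bp bins the core still rose locally at the intronic summit. The central bin held 11.3 sites per 100 summits, against 8.15 and 8.56 in its neighbours and 11.1 and 12.3 at 500 bp to either side.

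With each class cut into 4 equal groups by rank, the share of peaks with the site changed at promoters. No such change between the strongest and weakest groups was detectable in either distal class. With the distal intronic peaks in 4 equal groups, from strongest to weakest, the extended site was in 3.89%, 6.56%, 4.31% and 4.93% of windows (strongest against weakest, odds ratio 0.782, 0.422 to 1.45, Fisher's exact p = 0.441). At promoters the corresponding shares were 16.1%, 5.35%, 4.25% and 3.54% (odds ratio 5.21, exact p = 9.4e-28). Distal intergenic peaks gave 7.78%, 5.93%, 7.41% and 7.04% (odds ratio 1.11, 0.585 to 2.12, exact p = 0.870). The ratio of these odds ratios, intronic over promoter, was 0.150, with an interval of 0.0745 to 0.302.

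**Figure D5:**
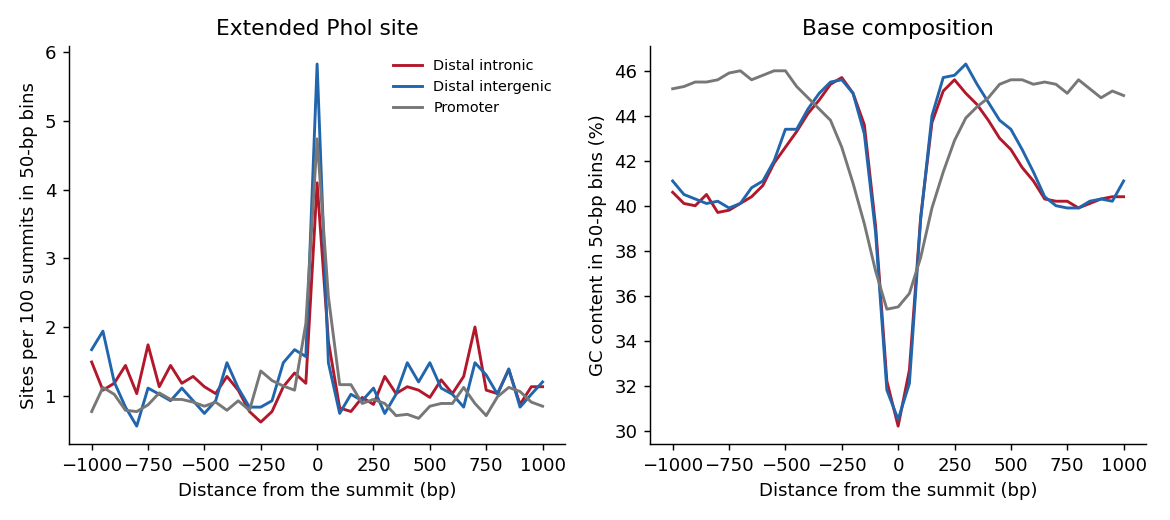
Left: extended Phol sites per 100 summits in 50-bp bins by distance from the summit, for distal intronic, distal intergenic and promoter peaks. Right: mean GC content in the same bins. All classes have their highest site density at the summit (4.10 per 100 in the central bin for distal intronic peaks), and the GC content of both distal classes dips deepest there.

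Base composition separated these summits from their surroundings. The summit windows averaged 30.6% GC, against 42.5% in the flanking windows, and 31.0% ± 0.247 against 42.4% ± 0.155 in the replicates (SD, n = 3). Intergenic summits averaged 30.7% and promoter summits 35.6%. The 96 intronic windows with the extended site averaged 44.5%, and the 1854 without it 29.9%. Among the 13 fixed words, 3 (23.1%) were more frequent at intronic summits than in flanks and 4 (30.8%) less frequent. Besides the extended site, the higher ones were TAATTA, bound by homeodomain factors (11.9% against 6.59%), and TGATAA, bound by GATA factors (10.6% against 5.46%). Beside the short core GCCAT, the lower ones were the GAGA factor site GAGAGAG (0.872% against 2.38%) and the E-box CAGCTG (2.05% against 4.33%). The repeat word GTGTGTGT was lower too (1.23% against 4.18%). The GC content differed between these windows in the way given above, and its part in the word counts was not tested.

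Against intergenic summits, 0 of the 13 words (0%) were more frequent and 1 (7.69%), GCCAT, was less frequent. Against promoter summits 2 (15.4%) were more frequent, TAATTA and TGATAA, and 5 (38.5%) less: both Phol words, TATCGATA, the DNA replication-related element (0.154% against 5.93%), GGTCACAC, the site of M1BP (0.410% against 3.74%), and CAGCTG. An open count over all 8192 words of 7 letters, a word and its reverse complement taken as 1, extended this comparison. Against flanks 1046 words (12.8%) were more frequent at intronic summits and 1851 (22.6%) less, by Fisher's exact test at an adjusted p of 0.05. The leading one, TTTAAAA, was in 15.7% of summit windows against 3.82% of flanks. AGATGGC and AAGATGG, which read as parts of the extended site on the other strand, were also more frequent (2.36% against 1.05%, and 1.85% against 0.692%). Against promoter summits 259 words (3.16%) were more frequent and 416 (5.08%) less, with ATCGATA in 1.08% of intronic and 11.6% of promoter windows. Against intergenic summits none passed in either direction (0% and 0%), and 319 had an unadjusted p under 0.05. A word match is a description of the letters in the window and does not show which protein was bound.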

How the data were processed

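Per the deposited readme notes, the authors called 30000 dm6 peaks on each of 3 replicates and on the pooled reads. They kept 10264 pooled peaks by their irreproducible discovery rate (IDR). The kept peaks equal the strongest 10264 of the pooled list, so a reproducible peak can lack a partner in a replicate. Aligner, caller, versions and IDR limit are not given in the sources used. The deposited signal value of each peak has no stated scale and served only to rank peaks within a list. The deposited −log10 q-value shares 1 maximum over the reproducible peaks and was not used. Read depth is unknown, so no interval covers it, and intervals and p-values cover counting error only.

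Summits (0-based start plus offset) were placed on the Ensembl release 115 annotation of the release 6 genome, on the 6 chromosome arms. The start codons read ATG in 99.8% of cases in the RefSeq sequence used. Sequences of arm 2R, 1 further sequence and 1 gene list are not reported here. Transposon insertions were not counted as genes, starts or exons. Where introns of several coding genes overlapped (64 summits), the innermost gene was the host. Eligible bases are those at which a summit would meet the rule. A peak was matched to a replicate when a replicate summit lay within 250 bp. Its replicate rank is that of the strongest such summit, which need not be the nearest. Fisher's exact tests were two-sided, with 95% intervals from the log odds ratio and Wilson intervals for shares, and Benjamini-Hochberg adjustment over the 13 fixed words or the 8192 words of 7 letters. Code was tested on simulated peaks. Python 3.11.15, numpy 2.4.6, pandas 2.3.3, scipy 1.17.1 and matplotlib 3.10.9 were used.

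The members, gene lists and words were chosen with earlier results of these data known. Named genes are the hosts of the 20 strongest summits, the 12 hosts with the most summits, up to 3 hosts with the strongest summits per list, the 5 largest eligible genes without a summit, the 5 densest hosts of at least 3 summits, and the 3 summits on either side of the 2000 bp limit. The introns with the most summits, jing and rdx among them, and the 7-letter words named were chosen after their values were seen. Of 786 gene symbols in the lists, 17 were matched by older symbols and 5 were not matched. Alternatives covered the distance limit, the starts counted, the strength of peaks, each replicate left out, the intron and host definitions and the windows.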

Additional observations from a re-analysis of the deposited data

How the results depend on the processing

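All samples belong to 1 group, so no test compares labelled groups. Classes of peaks were compared within the same replicates, and no paired test was run on the replicate values. The 11 results were recomputed 105 times under alternatives, of which 80 kept their direction and side of the threshold or moved by less than the SD between replicates. The distal intronic share was 25.3% with a limit of 1000 bp, 10.7% with 5000 bp and 16.8% in the strongest 5132 peaks. The first intron share was 44.2% with 1000 bp, 32.8% with 5000 bp, 38.6% with starts of protein-coding genes only, 39.1% in the strongest 5132, 56.4% and 33.4% with any or every transcript and 38.3% with the longest host, and 38.5% to 39.0% with a replicate left out. Summits per host were 2.32 with 5000 bp. The comparison of presence in all replicates was the least stable. Against promoter peaks its odds ratio was 0.894 with 1000 bp, 3.63 in the strongest 5132, 1.24 with partners within 100 bp and 0.384 to 1.13 with a replicate left out. Against intergenic peaks it was 1.19 with 5000 bp, 1.01 in the strongest 5132, 1.12 to 1.28 with a replicate left out and 1.19 with transposon insertions counted as genes, an alternative chosen after seeing the data. The odds ratio of the extended site against promoter summits was 0.809 within 25 bp, and that of the promoter peak of hosts 0.968 with a 200 bp window. The cause of these shifts was not tested. The comparisons of the strongest 25% kept their call under every alternative run, with odds ratios of 1.22 to 1.59 against intergenic peaks and 0.359 to 0.631 against promoter peaks. The extended site stayed more frequent than in flanks, at 1.72 to 4.05. Because lists have a fixed length, the number of bound sites in a replicate is not known.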

Other observations

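The pooled list held 30000 peaks, of which the strongest 10264 are the reproducible ones. The rest, below them, held 5548 further summits that met the distal intronic rule. Among the 10264, 1950 (19.0%) met it. The 1950 reproducible summits lay in 1943 intervals, of which 6 held several summits (13 in all), and the intervals were 105 to 1536 bp wide with a median of 333 bp. Besides their coding host, 55 summits also lay inside a noncoding gene. The introns that held a summit were between 182 bp and 133 kb long, with a median of 16.8 kb over summits.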
